A study of Homo sapiens with 7 samples.

Results

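The guides described here were directed at numbered regions of human chromosome 19 in a CRISPR interference (CRISPRi) screen of prostate cancer cells grown as tumours in mice. They were all guides whose region name ends in _chr19, a choice that used the name alone and no measured value. They numbered 55 of the 466 guides in the table, in 11 of its 95 regions, the most of any of the 19 chromosomes represented. Each of the 11 regions had 5 guides.

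The cells in every group were C4-2B, an established metastatic derivative of the LNCaP prostate cancer line, made CRISPRi-ready and transduced with a library of targeting and non-targeting guides. The labels give 6 libraries from subcutaneous xenograft tumours at the end of the screen, and 1 library from the same cells after about 10 doublings in culture. No drug, castration, mouse strain or age is named in the labels, and the meaning of the letters and numbers in the tumour titles is not given. The table analysed gave fitted values for each guide and nothing for single libraries. Library depth and the spread between tumours are therefore unknown.

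CRISPRi brings a catalytically dead Cas9 fused to a repressor domain to the site that a guide RNA matches, which lowers transcription from a promoter or the activity of an enhancer without cutting the DNA. The guide is integrated in the genome of each cell, so its sequence also serves as a barcode. A guide against an element that cells need to grow becomes rarer in the population, and a guide against an element that restrains growth becomes more common. Several guides are directed at each region because single guides differ in how well they silence, and agreement between them is what ties a change to the region. Such screens of non-coding DNA read the effect of an enhancer or promoter on growth without naming the gene it controls. The table gives no position, sequence or gene for any region, so regions are named below by their number, and no sequence is printed.

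The quantity compared was the authors' logistic coefficient for each guide, taken as a natural logarithm and written below as an odds ratio. The file names neither the base of the logarithm nor the libraries set against each other. The sign of the coefficient is not defined either. Below, "lower" means an odds ratio under 1, which may stand for a guide rarer in the tumours than in the comparator. That reading could not be checked. The rescaled score is the authors' version of the coefficient over its standard error. Every interval below is a 95% interval from the standard error after the authors' rescaling, which widens it 1.35 times. These intervals may leave out the spread between tumours. The zero of the scale, an odds ratio of 1, was not checked, since no non-targeting guide was analysed here, and the median of all 466 guides lay at 0.857. Some statements change when all guides are centred on that median, and a centred value is given for several of them. Statements without one, such as the sign of a single guide, hold for the deposited scale only. The median guide on chromosome 19 had a standard error of 0.170 on the natural log scale before that widening, and its interval reached 1.57-fold either way. Guides of a region share the target, so they are repeat measurements of a region and not of the animals.

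Most guides on chromosome 19 could not be told from an odds ratio of 1. The interval held 1 for 50 of the 55 guides, lay below 1 for 4 and above 1 for 1. One guide was lower past the authors' adjusted p of 0.05, 296_chr19_seq278, and 0 were higher. That rule called 1.29% of all 466 guides lower and 0% higher. On chromosome 19 it called 0 guides lower once scores were centred on the table's median, and also 0 at an adjusted p of 0.01. The matching counts over all 466 guides were not made for these 2 settings. At an unadjusted p of 0.05 in the authors' deposited table, 4 chromosome 19 guides were lower (7.27%) and 1 was higher (1.82%), against 13.1% and 0.644% of all guides. The 4 lower guides lay in 4 different regions: 296, 1082, 1301 and 427.

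As a group, the chromosome 19 guides sat where the rest of the table did. Their median rescaled score in the authors' deposited table was -0.66 (quartiles -1.30 and 0.31), against -0.65 (quartiles -1.30 and 0.12) for all 466 guides. The median odds ratio was 0.863 on chromosome 19 and 0.857 over all guides. A rescaled score below 0 was found for 37 of the 55 guides (67.3%), against 70.8% of all guides. With scores centred on the table's median, 29 of the 55 guides lay below 0. Over all 466 guides that centring puts as many below 0 as above it, by construction. By median score, chromosome 19 was at rank 11 from the lowest of 19 chromosomes. Chromosomes 16 and 3, which held the next most regions, had median scores of -0.68 over 50 guides and -0.34 over 41 guides.

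Chromosome 19 guides were fewer than the table's share among the lowest scores and near that share among the highest. Among the 47 lowest-scoring guides of the table, 2 were on chromosome 19, or 3.64% of its guides where the table as a whole gives 10.1%. Among the 47 highest-scoring guides, 7 were on chromosome 19, or 12.7% against the same 10.1%. Leaving out region 795, the corresponding counts were 2 and 5 of 50 guides (4% and 10%). These counts were made after the scores had been seen, and they are a description with no test.

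Each region was then summarised by the mean of its 5 coefficients, weighted by the inverse of their squared standard errors, with a 95% interval that takes guides as independent. These intervals are a description: with 5 guides to a region no p-value is given for a region, and the intervals are not adjusted for the number of regions. The weighted mean was below an odds ratio of 1 in 10 of the 11 regions and above it in 1, against 87 below and 7 above among the 94 regions of the table with at least 2 guides. The interval lay below 1 in 3 of the 11 regions (296, 1301 and 1082), where 31.9% of the 94 regions did so. It lay above 1 in 0 of the 11, as in 0% of the 94. The share on chromosome 19 was thus close to that over the whole table. After centring, the interval lay below 1 in region 296 alone among the 11, at 0.788 (0.631 to 0.985), and above 1 in region 795 alone, against 4.26% and 2.13% of the 94 regions. Regions 1301 and 1082 then stood at 0.909 (0.741 to 1.12) and 0.915 (0.753 to 1.11). Of the 10 regions below 1 on the deposited scale, 7 lay above it after centring.

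Region 296 was the lowest on chromosome 19 and the fourth lowest of the 94 regions. In the authors' deposited table its guides 276 to 280 had rescaled scores of 0.56, -1.28, -3.52, -1.70 and -1.24. The odds ratios of these guides were 1.44, 0.775, 0.381, 0.704 and 0.735. Guide 278 stood lowest, 3 others lay between -1.70 and -1.24, and guide 276 alone was above 0. Guide 276 was also the worst measured guide on chromosome 19, with a standard error of 0.459 before rescaling, and its interval ran from 0.429 to 4.83. Guide 278 had an interval of 0.221 to 0.655 and was the fifth lowest of all 466 guides, with an adjusted p of 0.038 in the authors' deposited table. The region's weighted odds ratio was 0.676 (0.541 to 0.844). On the deposited scale it was 0.759 without guide 278, and the interval excluded 1 whichever guide was left out. With the spread between guides added to the error (random effects), the odds ratio was 0.673 with a wider interval of 0.501 to 0.904. After centring, the weighted odds ratio with every guide was 0.788 (0.631 to 0.985). Centring was not combined with leaving out guides or with random effects. In those 2 settings the exclusion of 1 therefore holds for the deposited scale only. The odds ratio of 0.759 without guide 278 stands beside a median of 0.857 over all 466 guides.

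With no adjustment for the number of pairs, the interval of the ratio excluded 1 for guide 278 against guides 276 and 277. The odds ratio of guide 276 was 3.78 times that of guide 278 (1.003 to 14.3), and that of guide 277 was 2.04 times that of guide 278 (1.04 to 4.0). These were 2 of the 110 pairs of guides of the same region on chromosome 19 (1.82%), against 6.52% of the 920 such pairs in the table. In the other 10 regions the interval of the ratio between any 2 guides held 1.

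Regions 1301 and 1082 followed, with nearly equal weighted means. In the authors' deposited table, guides 86 to 90 of region 1301 scored -2.02, -1.33, -1.25, -1.56 and 0.53. The first 4 were thus low and close together, and guide 90 alone lay above 0. The weighted odds ratio of region 1301 was 0.779 (0.635 to 0.957). Its guide 86 had an odds ratio of 0.627 (0.396 to 0.992) and an adjusted p of 0.345 in the authors' deposited table. Without its highest guide the region's odds ratio was 0.701, the lowest value that leaving out any 1 of its guides gave.

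In region 1082 every guide scored below 0 on the deposited scale, though guides 19 and 20 lay above the table's median of -0.65. Guides 16 to 20 had rescaled scores of -2.34, -0.73, -1.86, -0.42 and -0.0066 in the authors' deposited table. The scores thus ran from a low pair, guides 16 and 18, to a guide at the zero of the scale; the odds ratio of guide 20 was 1.01, because the authors' rescaling also moves the zero by 0.0404 standard errors. Guide 16 had an odds ratio of 0.621 (0.414 to 0.930) and an adjusted p of 0.310 in the authors' deposited table. The weighted odds ratio of region 1082 was 0.784 (0.645 to 0.952). For both 1301 and 1082, the deposited scale gave an interval that excluded 1 in 3 of the 5 cases with 1 guide left out.

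The next 7 regions had weighted odds ratios between 0.860 and 0.983, each with an interval that held 1. Region 294 was the most uniform of all 94 regions in the table. Its guides 271 to 275 scored -0.79, -0.74, -0.95, -0.73 and -0.31 in the authors' deposited table, an SD of 0.239 where the median region on the other chromosomes had 0.982. All 5 lay below 0, as they did in 14.6% of the 89 regions with 5 guides. Their odds ratios ranged from 0.815 to 0.943, and the weighted value was 0.860 (0.706 to 1.05), so a small and even shift could not be separated from 1. The coefficients of region 294 had an SD of 0.0571, which was 0.251 times the root mean square of their rescaled standard errors. The guides were thus more alike than those errors give on average. Being the most uniform of 94 regions, region 294 is an extreme by selection, and whether so low a ratio is unusual was not tested.

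Region 290 scored -0.72, -1.41, -0.82, 0.30 and -0.20 for guides 266 to 270 in the authors' deposited table, with 4 of 5 guides below 0 and a weighted odds ratio of 0.867 (0.691 to 1.09). In region 427 the lowest score was that of guide 322, at -2.07, whereas guides 321, 323, 324 and 325 scored -0.013, 0.34, -0.78 and -0.65 in the authors' deposited table. Guide 322 had an odds ratio of 0.514 (0.271 to 0.975), the second lowest on chromosome 19, and an adjusted p of 0.341 in the authors' deposited table. With all 5 guides the weighted odds ratio of region 427 was 0.885 (0.712 to 1.10), and without guide 322 it was 0.949. Leaving out the lowest guide raises any region. It moved region 451 from 0.896 to 0.972 and region 233 from 0.910 to 0.983, so the change was not particular to region 427.

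Regions 451 and 233 held guides on both sides. In the authors' deposited table, guides 331 to 335 of region 451 scored 0.82, -1.64, -1.47, 0.80 and -1.05, so that 2 guides lay near 0.8 and 3 lay at -1.05 or lower, with none between. The weighted odds ratio of region 451 was 0.896 (0.729 to 1.10). Guides 250 to 254 of region 233 scored 0.29, 0.61, -1.70, 0.14 and -1.46 in the authors' deposited table, with 3 guides just above 0 and 2 well below. The weighted odds ratio of region 233 was 0.910 (0.747 to 1.11). The ratio of the highest to the lowest guide was 1.65 (0.930 to 2.94) in 451 and 1.69 (0.871 to 3.26) in 233. Both intervals held 1. This ratio sets 1 guide against 1 and cannot decide whether the groups of guides differed, which was not tested. The SD of the coefficients was 1.20 times the root mean square of their rescaled standard errors in 451 and 1.07 times in 233.

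Regions 1589 and 1373 lay closest to an odds ratio of 1 on the deposited scale. Guides 175 to 179 of region 1589 scored -0.20, -0.66, -0.044, 0.43 and -1.34 in the authors' deposited table, and the weighted odds ratio was 0.924 (0.755 to 1.13). Guides 115 to 119 of region 1373 scored 0.64, -1.21, -0.45, 0.78 and 0.31 in the authors' deposited table. With 3 of its guides above 0 and 2 below, region 1373 had a weighted odds ratio of 0.983 (0.789 to 1.22). Its position relative to 1 changed with the summary: without its lowest guide, 116, the weighted odds ratio was 1.08. After centring, region 1373 stood at 1.15 (0.921 to 1.43) and region 1589 at 1.08 (0.880 to 1.32). Regions 294 (1.004) and 290 (1.01) then lay closest to 1.

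Region 795 was the highest of the 94 regions in the table by weighted mean, and was known to be high before it was described here. Guides 396 to 400 scored 2.40, 0.59, 0.057, 0.56 and 0.95 in the authors' deposited table, with odds ratios of 1.93, 1.14, 1.02, 1.13 and 1.38. All 5 lay above 0, which no other region with 5 guides showed (1.12% of 89 regions). Guide 396 stood above the others and was the second highest score of the 466 guides; its interval ran from 1.14 to 3.27. The authors' deposited table lists 0.295 as the adjusted p of guide 396. The intervals of the remaining 4 guides all held 1. The weighted odds ratio of region 795 was 1.22 (0.993 to 1.49), so its interval held 1 on the deposited scale. With coefficients centred on the table's median it was 1.42 (1.16 to 1.74), which excluded 1 with no adjustment for the number of regions. On the deposited scale, the odds ratio was 1.12 without guide 396 and 1.30 without guide 398, the one nearest to 1. The interval excluded 1 in 1 of the 5 cases in which a guide was left out.

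The regions were compared in all 55 pairs, by the ratio of their weighted odds ratios. The interval of the ratio excluded 1 in 11 pairs, against 7.62% of the 4371 pairs of regions in the table. Of these 11 pairs, 8 held region 795, which leaves 3 of the 45 pairs without it. These pairs share regions and are not independent, and the count has no adjustment for their number. Region 795 was 1.80 times region 296 (1.33 to 2.44), the widest gap on chromosome 19. It was 1.56 times region 1301 (1.17 to 2.09) and 1.55 times region 1082 (1.17 to 2.06). Against regions 1373 and 1589 the ratios were 1.24 (0.918 to 1.67) and 1.32 (0.989 to 1.76), whose intervals held 1. The guides of region 795 did not overlap with those of regions 1082 and 294 in odds ratio, which makes 2 of 55 pairs against 0.778% of the 4371 pairs; in every other pair of chromosome 19 regions at least some guides overlapped.

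The other 3 pairs set region 296 against the regions nearest to 1 on the deposited scale. Region 1373 was 1.45 times region 296 (1.06 to 1.99), region 1589 was 1.37 times it (1.01 to 1.85), and region 233 was 1.35 times it (1.0003 to 1.81). In the order from lowest to highest (296, 1301, 1082, 294, 290, 427, 451, 233, 1589, 1373, 795), none of the 10 steps between neighbours had an interval that excluded 1. The largest steps were at the ends, 1.15-fold between 296 and 1301 (0.853 to 1.56) and 1.24-fold between 1373 and 795 (0.918 to 1.67).

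The spread among guides of a chromosome 19 region was about the size of their rescaled errors. Against the fitted errors, before that widening, each ratio of spread to error is 1.35 times as large. The SD of the 5 coefficients was above the root mean square of their rescaled standard errors in 5 of 11 regions (45.5%), against 42 of 83 regions (50.6%) on the other chromosomes. The median of that ratio was 0.952 on chromosome 19 and 1.002 elsewhere. It was highest in region 296, at 1.35. By Dixon's criterion of 0.71, with guides taken as the repeat measurements, 0 of the 11 regions held a guide that stood apart from the others, against 2.25% of the 89 regions with 5 guides. The means of the regions themselves spread slightly more: the SD of the mean scores was 0.627 over the 11 regions and 0.479 over the 83 others. Without region 795 it was 0.424.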

How the data were processed

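Guide amplicons from 6 tumour libraries and 1 cultured library were sequenced, per the labels. UMI-tools, cutadapt, Bowtie2, SAMtools and hg38 are named per the submitters' processing notes; the sources used here give neither versions, nor the counting, nor the libraries compared. The authors deposited a logistic coefficient per guide, read here as a natural log value. The deposited logit.z score is the coefficient over its standard error. The rescaled score is a straight-line function of it (shift 0.0404, scale 1.35; 0 guides off by more than 1e-09). The deposited p-values follow from these scores, and the q-values are their Benjamini-Hochberg adjustment over 466 guides (0 guides off). Standard errors were recovered as coefficient over logit.z. From these, weighted region means, intervals and ratios were computed with Python 3.11.15, NumPy 2.4.6, pandas 2.3.3 and SciPy 1.17.1. The planned region test takes guides as independent, uses a normal reference and adjusts over 94 regions. It was tested on simulated data with independent normal errors of the rescaled size. Those data had no added spread between guides or tumours and no shift of the whole table. The simulation therefore cannot show how the test does where these are present. The p-values of the region test are not printed, because a region has 5 guides and a normal approximation is not reported for so few values. Intervals stand in their place, and counts of regions called by that test appear only where settings are compared. All regions and guides of chromosome 19 were named; full statistics went to guides with an unadjusted p under 0.05 and to the ends of the regions. The members and rules were chosen with earlier results of these data known. Non-targeting guides are not analysed here, so the zero of the scale was not checked.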

Additional observations from a re-analysis of the deposited data

How the results depend on the processing

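The counts of calls changed with the threshold, the zero and the error. Against the main count of 1 lower and 0 higher guides on chromosome 19, an adjusted p under 0.01 gave 0 lower, the unadjusted p gave 4 lower and 1 higher, and centring on the median of all guides gave 0 lower. With the error before the authors' rescaling, 2 guides were lower (1082_chr19_seq16 and 296_chr19_seq278) and 1 was higher (795_chr19_seq396). Counts over all 466 guides were not made at an adjusted p under 0.01, after centring or with that error. Guide counts in those settings therefore have no background share beside them. The planned region test, whose p-values are not printed because a region has 5 guides, called 1 of 11 regions lower (296) and 0 higher, against 10 and 0 of all 94. With the error before rescaling it called 3 lower (296, 1082 and 1301) and 1 higher (795), against 36 and 1 of all 94. Lower regions numbered 0 with random effects, 0 without the lowest guide of each region, 0 after centring and 3 without the highest guide of each region; the first 3 of these settings left 0 lower regions among all 94 too. Leaving out the lowest or the highest guide of every region shifts all regions one way by construction: over the 94 regions, the latter gave 27 lower regions and the former 0, against 10.

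Region 296 kept its direction but lost that call, with weighted mean coefficients of -0.40 with random effects, -0.28 without its lowest guide and -0.24 after centring, against -0.39. Without their highest guide, regions 1082 (-0.30) and 1301 (-0.36) gained it. Region 1373 (-0.018) turned positive as a sum of scores (0.031) and without its lowest guide (0.080). Centring, added for single regions after seeing the data, moves the zero by -0.15 on the natural log scale. It turned 7 of the 10 lower regions positive: 1373 (0.14), 1589 (0.075), 233 (0.060), 451 (0.044), 427 (0.032), 290 (0.012) and 294 (0.0039). Region 795 then stood at 0.35, an odds ratio of 1.42 whose interval excluded 1, and differences between regions do not depend on that zero. Leaving out the guides with the widest 10% of standard errors, 4 of them on chromosome 19, changed no count of calls on chromosome 19. Over all 94 regions that setting gave 6 lower regions against 10.

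No paired analysis was possible because single libraries have no column in the table. Leaving out single tumours was not run for that reason, and depth is unknown.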

Other observations

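No region of chromosome 19 passed Dixon's criterion of 0.71 for a guide apart from the others. The nearest was region 1301, where the gap between guide 90 and the next guide took 0.696 of the region's range of scores. Region 294 followed at 0.648, although its whole range was 0.645 units of the rescaled score, and region 795 had 0.619. In region 296, which had the widest range (4.08 units of the rescaled score), the largest gap took 0.445 of it.

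Standard errors of the chromosome 19 guides before rescaling ran from 0.147 to 0.459, where those of the other chromosomes ran from 0.137 to 1.27.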
